A study of Drosophila melanogaster with 7 samples.

Results

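The transcriptome described here is that of the midgut of virgin Drosophila melanogaster females kept at 20% oxygen until day 53, taken for its own sake and not set against another oxygen level. Its members are the 3 libraries titled ox20, out of 7 libraries in the series; the other 4 are not analysed here. The flies carried the strain label sg-Gal4,UAS-GFP, a driver and reporter pair shared by all 3 libraries, and lived in sealed cabinets at an oxygen level the labels call normoxia. Total gut RNA, purified on RNeasy Plus Mini columns, went into mRNA libraries that keep the strand and were sequenced on DNBSEQ. Replicates 1 and 2 carry batch 1 in the labels and replicate 3 carries batch 2. The labels state neither how many guts went into a library nor whether replicates came from separate cultures, so the SDs below measure the spread between these libraries, which may be technical.

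The fly midgut breaks down food and takes up its nutrients. Its large absorptive cells, the enterocytes, secrete proteases, carbohydrate-splitting enzymes and lysozymes and carry a brush border, while scattered enteroendocrine cells release peptide hormones. Stem cells marked by Delta and escargot replace both kinds, an acid-secreting middle region holds copper cells, and a sleeve of visceral muscle with tracheal branches surrounds the tube. The female midgut in old age is known for overactive stem cells, a heavier bacterial load and raised immune gene activity; no young flies were measured in these libraries, so nothing below is a change with age.

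Levels are given as TPM, transcripts per 1000000 transcripts, which corrects for transcript length. TPM was summed per gene and rescaled to 1000000 in each library after removal of the genes of the mitochondrial genome, and 3 values in a row are those of replicates 1, 2 and 3 in that order. Replicate 3 stood apart from the other 2 libraries before any result was drawn. The mitochondrial genome took 64.0% of its counts (95% Clopper-Pearson interval 63.9 to 64.0%), against 4.10% (4.09 to 4.11%) and 4.52% (4.51 to 4.53%) in replicates 1 and 2. That left 6997693 counts in replicate 3, against 20640919 and 21217514 in replicates 1 and 2, so that 3 counts, used as the floor, stood for 0.429 CPM (counts per 1000000 counts) in replicate 3 and for 0.145 and 0.141 CPM in replicates 1 and 2. Over the genes at 1 TPM or more in all 3 libraries, Spearman's rho was 0.983 between replicates 1 and 2, 0.855 between 1 and 3 and 0.853 between 2 and 3. These values are across genes of the same tissue, and genes are not independent replicates. Values are therefore given for each library, so that each can be read without replicate 3.

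A gene was counted as detected at 1 TPM or more in all 3 libraries. By that rule 7135 of 24166 features were detected, among them 6979 of 13968 protein-coding genes, while 11210 features, 3024 of them protein-coding, had no count in any library. Taken singly, replicates 1, 2 and 3 held 7826, 7980 and 7776 genes at that level. The levels were steeply graded: 2893 genes reached 10 TPM in every library, 583 reached 100 TPM and 126 reached 1000 TPM. The 10 genes with the highest mean level held 29.8%, 27.7% and 23.9% of all TPM (mean 27.1% ± 2.99, SD, n = 3), and the leading 100 held 64.6%, 62.1% and 60.4% (mean 62.4% ± 2.13). The midgut RNA was thus dominated by few genes in all 3 libraries, as the plot of cumulative share by rank shows.

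**Figure D1:**
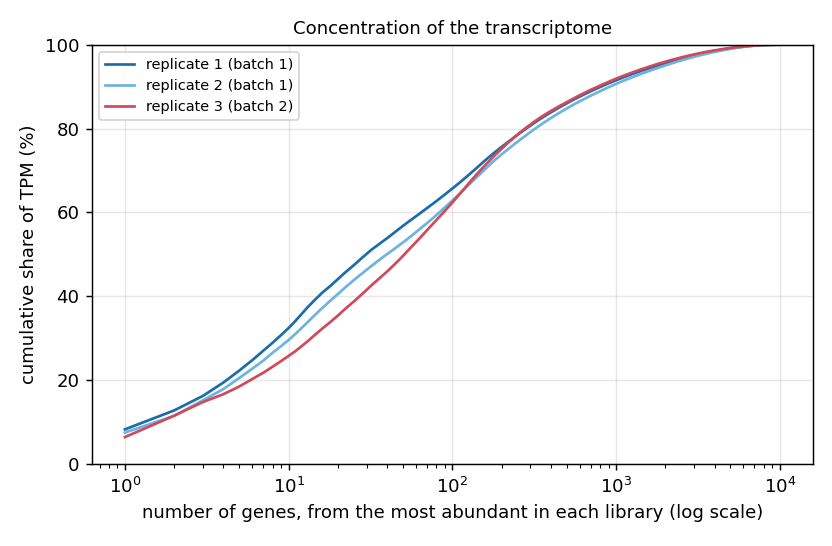
Cumulative share of TPM (vertical axis, percent) against gene rank within each library (horizontal log axis), 1 line per library. Each library's own 10 leading genes held 32.5%, 29.6% and 25.8% of TPM in replicates 1, 2 and 3, and its own leading 100 held 65.7%, 62.8% and 62.4%.

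The leading genes by TPM, a unit that divides by transcript length, were short. The part of that division in their shortness was not tested. In the top 100, the median transcript length was 631 bases, against 1723 bases over all detected genes, and 32.0% had a main transcript of 1 exon, against 10.9%. Transcripts under 500 bases belonged to 21 of the top 100, against 3.59% of detected genes. The leaders were nearly the same in the 2 batch 1 libraries, whose top 10 shared 10 genes, whose top 30 shared 29 and whose top 100 shared 93. All 3 libraries shared 5 genes of the top 10, 18 of the top 30 and 65 of the top 100. Of the top 100, 18 carry only a CG number for a name.

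Lysozymes are enzymes that cut the cell wall of bacteria and that fly midguts use to digest microbes. A single lysozyme feature, LysC, was first of all genes by mean TPM but not by counts. LysC had 83149.6, 75524 and 32631 TPM, or 8.31%, 7.55% and 3.26% of all TPM in replicates 1, 2 and 3, where it ranked 1, 1 and 3 by TPM. The annotation calls LysC a pseudogene of 1 exon and 242 bases (chromosome 3L, 1210485 to 1210726, plus strand, assembly BDGP6.54). Its effective length, the number of start positions a read could have, was only 46.8 bases, and a TPM divides by that length. Without the length correction LysC ranked 28, with 5831, 5072 and 2678 CPM. LysD (chromosome 3L, 1210717 to 1211196, minus strand), a protein-coding gene next to it, had 19311, 19044 and 13253 TPM, and LysB (chromosome 3L, 1207371 to 1207981, plus strand) had 15211, 13437 and 8407 TPM. LysE had 5426, 4737 and 2044 TPM. The 7 lysozyme genes listed summed to 12.3%, 11.3% and 5.64% of TPM, of which LysC was 65.5%, and 4 of them filled 1207371 to 1213406 on chromosome 3L with 12.3%, 11.3% and 5.63% of TPM. Without the length correction the same 7 genes held 1.96%, 1.74% and 1.30% of counts. These neighbours resemble each other, so the split of reads among them is uncertain, and the TPM sum depends on it because a read given to LysC is divided by its 46.8 bases.

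Jonah proteases, chymotrypsin-like enzymes of the gut lumen, held the most RNA of any digestive family. They summed to 19.3%, 16.8% and 8.60% of TPM in replicates 1, 2 and 3 (mean 14.9% ± 5.60, SD, n = 3; 18.0% over replicates 1 and 2 alone), and 15 of 16 members were detected. Jon99Cii (chromosome 3R, 29923754 to 29924615, minus strand; 1 exon) was second of all genes by TPM and first by CPM, with 45141, 39988 and 18252 TPM. Jon65Aiv (chromosome 3L, 6039155 to 6040135, plus strand) had 31890.2, 26502 and 11285 TPM and Jon99Ciii (chromosome 3R, 29922216 to 29923455, plus strand) had 24586, 21954 and 11019 TPM. All 3 genes were lower in replicate 3 than in both other libraries. Jon65Aiii had 22565, 19217 and 7554 TPM, and Jon25Biii had 16742, 13883 and 8089.5 TPM. Jon25Bi had 16785, 14518 and 5949.6 TPM, and Jon25Bii had 8273, 7209 and 3833 TPM. Jon99Fii had 8322, 7899 and 3032 TPM, so the same pattern held for these 5 genes. Jon99Ci was the exception among the leaders, with 11358 TPM in replicate 3, against 5980.3 and 5948 TPM in replicates 1 and 2. It lies between 29922216 and 29926189 on chromosome 3R beside Jon99Cii and Jon99Ciii. That trio held 7.57%, 6.79% and 4.06% of TPM, and the Jon25B trio (chromosome 2L, 4949941 to 4955144) held 4.18%, 3.56% and 1.79%.

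Trypsins, serine proteases that cut after lysine and arginine, were the next protease family. All 11 Greek-letter trypsins were detected, and together they held 7.44%, 7.32% and 3.66% of TPM. betaTry (chromosome 2R, 11346325 to 11347395, plus strand) had 34731, 36978 and 14851 TPM and alphaTry (chromosome 2R, 11344260 to 11345119, minus strand) had 28498, 26793 and 14696 TPM; between them they were most of the family. epsilonTry, which lies between the pair, had 5953, 5328 and 2922 TPM. The 3 genes occupy 11344260 to 11347395 on chromosome 2R and held 6.92%, 6.91% and 3.25% of TPM. Jonah proteases and trypsins together came to 26.7%, 24.1% and 12.3% of TPM, the largest sum of any list in replicates 1 and 2, while ribosomal proteins held more in replicate 3. yip7, a further serine protease of the gut (chromosome 3L, 6035216 to 6036175, plus strand), had 10263, 9200.5 and 4582 TPM. Among leaders with no name beyond a number, CG18180 had 18089.8, 15639.6 and 7574 TPM, CG12374 16555, 14299 and 5901 TPM, CG10472 7312, 6840.4 and 3571 TPM and CG13323 5194, 5729 and 3556 TPM.

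The lysosomal proteases, the only other protease list, were far lower as a group. Proteases outside the lists, such as yip7 above, were not summed. The lysosomal proteases listed summed to 0.932%, 1.06% and 0.489% of TPM with 6 of 7 detected, and Bace, an aspartyl protease of the fly gut, made up most of that, with 8271, 9569 and 3894 TPM. The cathepsins behind it were far lower, CtsB, a cysteine cathepsin, at 503, 475 and 336 TPM and cathD, the aspartyl cathepsin of lysosomes, at 188, 177 and 309 TPM.

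Carbohydrate digestion was led by amylase, the starch-splitting enzyme, which flies carry in a pair of near-identical genes. Amy-d (chromosome 2R, 17124764 to 17126369, plus strand) had 7899, 7747 and 2072 TPM and Amy-p (chromosome 2R, 17118636 to 17120303, minus strand) had 4512, 4418 and 1729.8 TPM; the split between these copies is uncertain, and both were lower in replicate 3. Mal-A1, a maltase that frees glucose from malt sugar, had 705, 1071 and 476 TPM. Maltases and amylases summed to 1.47%, 1.54% and 0.521% of TPM, and 13 of 14 members were detected. Of the LMan alpha-mannosidases, enzymes that trim mannose from glycans, all 6 were detected at a sum of 2324, 3045 and 755 TPM. LManVI led with 1080.3, 1434 and 305 TPM, followed by LManV with 449.8, 638 and 179 TPM and LManII with 387, 430.3 and 141 TPM.

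Lipid handling was led by small carriers on the TPM scale. Acyl-CoA binding proteins, which hold activated fatty acids in the cytosol, summed to 1.87%, 1.71% and 1.18% of TPM, and all 6 were detected. Acbp5 (chromosome 3L, 8788144 to 8788545, minus strand; effective length 108 bases) had 12996, 11858 and 7702 TPM, Acbp3 2938, 2779 and 1865 TPM and Acbp2 1946, 1838 and 1262 TPM. The lipases and sterol carriers summed to 2544, 2763 and 1564 TPM. In counts the lists lay close, at 0.351%, 0.311% and 0.285% for the acyl-CoA binding proteins and 0.279%, 0.295% and 0.174% for the lipases and sterol carriers. Npc2d, of the family of sterol-binding Npc2 proteins, had 859, 937 and 582 TPM, and mag, the secreted lipase Magro that splits dietary fat, had 457, 553 and 180.5 TPM. Npc2f had 364, 443 and 185 TPM. Genes of fatty acid synthesis and storage summed to 3085, 3127 and 2467 TPM, most of it from fabp, a fatty acid binding protein, with 2337, 2365 and 2089 TPM. Desat1, which puts the first double bond into fatty acids, was nearly the same in all 3 libraries, at 199, 197 and 196 TPM, while Lsd-2, a lipid droplet coat protein, had 57.2 TPM in replicate 3, against 265 and 269 TPM in replicates 1 and 2. Pebp1, a member of the phosphatidylethanolamine-binding family (chromosome 3R, 22466034 to 22466679, plus strand), ranked among the 30 leaders with 11973, 12564 and 5857 TPM.

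The nutrient transporters were far less abundant than the proton pump of the V type. The 15 nutrient transporters listed summed to 307, 319 and 179 TPM, and 12 were detected. slif, a carrier of basic amino acids, led with 85.2, 88.2 and 32.3 TPM, ahead of Indy, which carries citrate, with 60.2, 74.4 and 53.7 TPM, and NAAT1, which carries neutral amino acids, with 65.1, 40.4 and 38.8 TPM. The proton pump of the V type, which drives acid secretion and ion transport, summed to 4908, 5074 and 3365 TPM. It had 15 of 26 listed subunit genes detected and 7 without a single count in any library, among them Vha100-3, Vha14-2 and Vha36-2, alternative copies of subunits that were detected. Vha13 led with 1061, 1029.8 and 699 TPM, Vha16-1, which forms the ring in the membrane, had 746, 772 and 443 TPM, and Vha36-1 had 377, 393 and 931 TPM.

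The peritrophic matrix is the chitin and mucin sheet that separates food from the gut cells. Its listed genes and mucins summed to 4583, 4235 and 3528 TPM, with 13 of 24 detected. Peritrophin-15a alone was most of this, at 3310.4, 2878 and 2718 TPM, followed by Peritrophin-15b at 423, 382 and 218 TPM and Mur18B at 343, 405 and 263 TPM. Muc68D, a mucin with a transcript of 4802 bases, was among the 10 genes with the lowest ratio of replicate 3 to batch 1, at 5.73 TPM in replicate 3, against 83.1 and 71.1 TPM in replicates 1 and 2. Smooth septate junctions, the seals between midgut cells, were represented by all 14 listed genes with a sum of 971, 1030.1 and 747 TPM. Ssk and Tsp2A, membrane proteins of that junction, had 366, 366 and 343 TPM and 207, 213 and 145 TPM.

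Metal binding proteins were abundant on the TPM scale and were among the families that separated replicate 3 from the rest. Metallothioneins, small cysteine-rich proteins that bind copper, zinc and cadmium, took a share of all TPM of 5.76% in replicate 3, against 0.996% and 1.22% in replicates 1 and 2. In counts their share was 1.08% in replicate 3, against 0.144% and 0.169% in replicates 1 and 2. MtnA (chromosome 3R, 9783407 to 9784370, minus strand; effective length 107 bases) had 51070.2 TPM in replicate 3, against 7459 and 9055 TPM in replicates 1 and 2, and MtnC had 3650.0 TPM in replicate 3, against 1848 and 2382 TPM in replicates 1 and 2. MtnB had 1419.9 TPM in replicate 3, against 261 and 272 TPM in replicates 1 and 2, and of the 6 listed genes the 5 that were detected were each highest in replicate 3. Ferritin, the iron store that midgut iron cells make and secrete, stood the other way. Its light chain Fer2LCH had 1420.1 TPM in replicate 3, against 3312 and 3587 TPM in replicates 1 and 2, and its heavy chain Fer1HCH had 1671 TPM in replicate 3, against 2738 and 2939.7 TPM in replicates 1 and 2. Both chains lie together at 30385573 to 30390584 on chromosome 3R and made up most of the iron and copper list, which summed to 6324, 6785 and 3407 TPM. Ctr1B, a copper importer, had 85.9, 75.9 and 141 TPM. Zinc transporters were low, at 356, 372 and 239 TPM over 15 genes, led by Zip99C at 90.8, 79.4 and 54.1 TPM, Zip48C at 41.6, 57.4 and 54.5 TPM and ZnT63C at 40.8, 48.6 and 38.6 TPM.

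**Figure D2:**
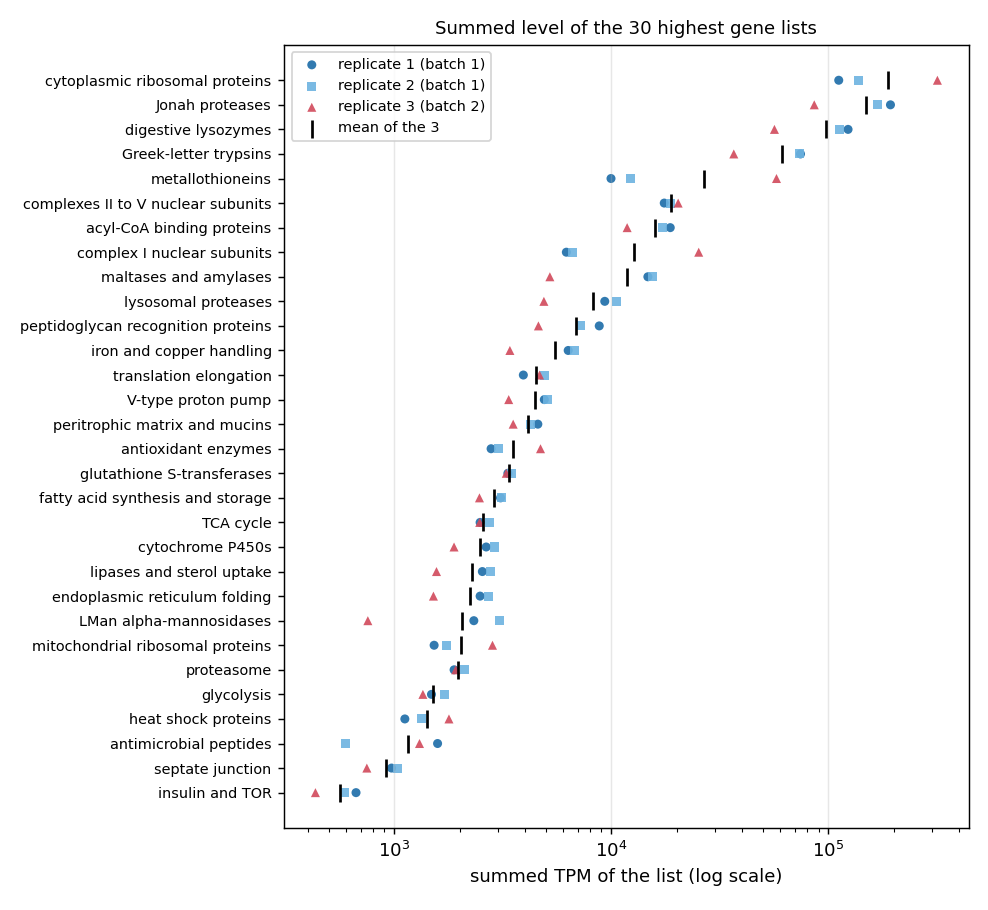
Summed TPM of the 30 gene families and pathways with the highest mean sum (horizontal log axis) in each library, 1 point per library. Jonah proteases sat at 193111, 167715 and 86032 TPM in replicates 1, 2 and 3 and lysozymes at 123125, 112752 and 56388 TPM, while ribosomal proteins sat at 111549, 136886 and 317701 TPM.

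Immune genes fell into an abundant and a scarce tier. The abundant one was the peptidoglycan recognition proteins, at 8792, 7222 and 4611 TPM with 11 of 13 detected. The sum was lower in replicate 3 through its leaders, while of the 11 detected genes 5 were lower and 6 higher in replicate 3 than the mean of batch 1 (median log2 ratio 0.93, against −0.36 over all detected genes). It consisted mostly of secreted amidases that degrade bacterial peptidoglycan and so dampen immune signalling: PGRP-SC1b had 3256, 2423 and 1853 TPM, PGRP-SC2 3059.8, 2738 and 1030.0 TPM and PGRP-SC1a 2258, 1834 and 1321 TPM. The first and last of these are close copies, so their split is uncertain; the 3 genes lie at 8709733 to 8717695 on chromosome 2R. Antimicrobial peptides, secreted peptides that kill microbes, summed to 1582, 595 and 1306 TPM, with 14 of 22 detected and 3, namely CecB, Drsl1 and Drsl6, without a count. Of the 14 detected genes 3 were lower and 11 higher in replicate 3 than the mean of batch 1. Their median log2 ratio was 1.46, against −0.36 over all detected genes. Several are short, such as Drs at 387 bases and Def at 399 bases. Genes under 500 bases at 5 TPM or more in all 3 libraries had a median of 0.78. The part of length in the levels of these peptides was not tested. Drs, the antifungal drosomycin, had 914, 76.0 and 406 TPM, so the libraries of batch 1 lay further apart at this gene than replicate 3 lay from either of them. Def, the defensin active on Gram-positive bacteria, had 466 TPM in replicate 3, against 177 and 121 TPM in replicates 1 and 2. DptA, a diptericin active on Gram-negative bacteria, stood the opposite way, with 28.7 TPM in replicate 3, against 362 and 279 TPM in replicates 1 and 2. Bomanins, short immune peptides produced chiefly under the Toll pathway, summed to 419.6 TPM in replicate 3, against 44.0 and 27.6 TPM in replicates 1 and 2. BomS6, of 198 bases and an effective length of 24.2 bases, had 165 TPM in replicate 3, against 4.08 and 4.09 TPM in replicates 1 and 2. Its values rest on 3, 3 and 50 counts, so replicates 1 and 2 sat at the floor of 3 counts and no fold is given. BomS2 had 54.1 TPM in replicate 3, against 4.59 and 2.84 TPM in replicates 1 and 2, and BomS3 had 46.3 TPM in replicate 3, against 8.28 and 5.62 TPM in replicates 1 and 2. The Imd pathway genes summed to only 266, 254 and 212 TPM; pirk, which holds that pathway down, led with 132, 113 and 81.7 TPM, ahead of key, a subunit of its kinase, with 31.9, 28.3 and 24.0 TPM, and Rel, its transcription factor, with 26.7, 28.3 and 18.1 TPM.

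Detoxifying enzymes were expressed broadly at middling levels. Of the glutathione S-transferases 28 of 36 were detected, at a sum of 3335, 3482 and 3279 TPM in which the 3 libraries lay close together. GstD1 had 593, 686 and 596 TPM, GstE12 456, 475 and 462 TPM and GstE6 287, 306 and 221 TPM. Cytochrome P450s, oxidases of foreign compounds and hormones, summed to 2649, 2894 and 1884 TPM with 55 of 85 detected. Cyp6d5 led with 438, 474 and 248 TPM, ahead of Cyp9b2 with 251, 314 and 188 TPM and Cyp9f2 with 246, 225 and 149 TPM.

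UDP-glycosyltransferases, which attach sugars to such compounds, summed to 588, 608 and 356 TPM, led by Ugt49B1 with 121, 125 and 65.1 TPM, Ugt37D1 with 66.5, 77.7 and 46.0 TPM and Ugt303B3 with 52.0, 53.4 and 24.4 TPM. The antioxidant enzymes summed to 4715 TPM in replicate 3, against 2791 and 3022 TPM in replicates 1 and 2. Of the 18 detected genes, however, 14 were lower and 4 higher in replicate 3 than the mean of batch 1. Their median log2 ratio was −0.79, against −0.36 over all detected genes. The higher sum came from a pair of genes. Trx2, a thioredoxin of 793 bases, had 2206 TPM in replicate 3, against 396 and 437 TPM in replicates 1 and 2, and Sod1, the cytosolic superoxide dismutase, had 1393 TPM in replicate 3, against 577 and 589 TPM in replicates 1 and 2. Prx2, a peroxiredoxin, was among the majority that were lower, with 201 TPM in replicate 3, against 363 and 335 TPM in replicates 1 and 2. Heat shock proteins summed to 1118, 1333 and 1785 TPM. Of the 14 detected genes 10 were lower and 4 higher in replicate 3 than the mean of batch 1. Their median log2 ratio of −0.35 was close to the −0.36 over all detected genes. Hsc70-4, a chaperone of unstressed cells, had 485, 597 and 642 TPM, while l(2)efl, a small heat shock protein, had 740.4 TPM in replicate 3, against 41.4 and 37.3 TPM in replicates 1 and 2.

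Housekeeping families showed the base load of the tissue. Cytoplasmic ribosomal proteins took a share of all TPM of 31.8% in replicate 3, against 11.2% and 13.7% in replicates 1 and 2. Of 92 listed genes 85 were detected, and of these 6 were lower and 79 higher in replicate 3 than the mean of batch 1. The median log2 ratio of the 85 genes was 0.61, against −0.36 over all detected genes. Ratios by transcript length are given below. The mean share of the ribosomal proteins was 18.9% ± 11.2 (SD, n = 3), and 12.4% over replicates 1 and 2 alone. RpL38 (chromosome 2R, 4515388 to 4516458, minus strand) carried part of this gap by itself, with 64704 TPM in replicate 3, against 1052 and 1524 TPM in replicates 1 and 2, a 50.2-fold difference. RpL41, which encodes the shortest protein of the ribosome, had 17833 TPM in replicate 3, against 5787 and 7337 TPM in replicates 1 and 2, and RpLP2, a stalk protein, had 18691 TPM in replicate 3, against 2034 and 2319 TPM in replicates 1 and 2. RpS23, RpL27A and RpL23 were also among the 30 leaders, with 3295, 3746 and 11419 TPM, 2096, 2585 and 12201 TPM and 1950.4, 2301 and 11213 TPM. Because of replicate 3 the ribosomal proteins exceeded the Jonah proteases in the mean TPM of 3 libraries, and without it they were below them. In counts the ribosomal proteins held 6.09%, 7.25% and 18.7% in replicates 1, 2 and 3. Their mean over 3 libraries was then 106934 CPM, below the 136718 CPM of the Jonah proteases. Translation elongation factors did not share the gap between replicate 3 and batch 1, at 3929.6, 4929.7 and 4666 TPM. eEF1alpha1, which brings aminoacyl-tRNA to the ribosome, had 1746, 2210.5 and 2097 TPM, eEF5 830.0, 988 and 1074 TPM and eEF2 607, 747 and 549 TPM.

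Nuclear genes for mitochondrial proteins were well represented, and small subunits set replicate 3 apart. Of the mitochondrial ribosomal proteins 72 of 73 were detected at a sum of 1525, 1742 and 2833 TPM, led by mRpS21 with 39.3, 38.5 and 562 TPM, mRpS14 with 60.3, 70.3 and 179.6 TPM and mRpL34 with 24.1, 29.4 and 175 TPM. Of the 72 detected genes 28 were lower and 44 higher in replicate 3 than the mean of batch 1. Their median log2 ratio was 0.12, against −0.36 over all detected genes. Complex I, the entry point of the respiratory chain, took a share of all TPM of 2.53% in replicate 3, against 0.620% and 0.664% in replicates 1 and 2. ND-B14.5B had 7277 TPM in replicate 3, against 364 and 404 TPM in replicates 1 and 2. ND-MLRQ had 6439.7 TPM in replicate 3, against 1148 and 1184 TPM in replicates 1 and 2, and ND-B14.5A had 3845 TPM in replicate 3, against 241 and 244 TPM in replicates 1 and 2. These 3 small subunits held most of the complex I gap: of its 33 detected genes 19 were higher and 14 lower in replicate 3. The median log2 ratio of the 33 genes was 0.07, against −0.36 over all detected genes. Complexes II to V differed less, with 1.75%, 1.87% and 2.03% of TPM; COX7B and cype, small subunits of cytochrome oxidase, had 1134, 1150.1 and 1653 TPM and 1294, 1315 and 1259 TPM, and ATPsynC, the ring subunit of ATP synthase, had 1211, 1427 and 936 TPM. Of the 37 detected genes of complexes II to V, 21 were lower and 16 higher in replicate 3 than the mean of batch 1. Their median log2 ratio was −0.03. Complexes I to V together had 70 of 93 listed genes detected, at 2.37%, 2.53% and 4.56% of TPM.

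Central metabolism and protein turnover had similar sums in the 3 libraries, which the single genes did not always share. The tricarboxylic acid cycle summed to 2484, 2746 and 2474 TPM, led by SdhC with 336, 337 and 1034 TPM, Mdh1 with 274, 322 and 338 TPM and Idh with 307, 356 and 119 TPM. In this list, of the 17 detected genes 13 were lower and 4 higher in replicate 3 than the mean of batch 1, so the level sum rested on SdhC. The median log2 ratio of the list was −0.63, against −0.36 over all detected genes. Glycolysis summed to 1483, 1696 and 1354 TPM with all 13 genes detected, led by Gapdh2 with 326, 366 and 292 TPM, Ald1 with 279, 305 and 170.3 TPM and Gapdh1 with 172, 197 and 174 TPM. The proteasome summed to 1885, 2099.6 and 1918 TPM, with Prosbeta5 at 95.6, 101 and 164 TPM, Prosbeta4 at 99.9, 118 and 109 TPM and Prosalpha2 at 93.6, 105 and 95.5 TPM. Protein folding in the endoplasmic reticulum, on which secreted enzymes depend, was lower in replicate 3, at 1514 TPM in replicate 3, against 2484 and 2729 TPM in replicates 1 and 2; Calr and Pdi, chaperones there, had 401, 456 and 259 TPM and 394, 414 and 220.3 TPM. Autophagy genes summed to 407, 397 and 357 TPM, of which Atg8a, which coats the autophagosome, had 207, 194 and 197 TPM.

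Signalling and regulatory genes were present at low levels. The insulin and TOR genes summed to 666, 589 and 433 TPM, nearly all of it from Thor, the translation repressor 4E-BP, with 589.7, 509 and 306 TPM. Ilp3, an insulin-like peptide that midgut muscle is known to make in adults, had 78.6 TPM in replicate 3, against 6.33 and 5.86 TPM in replicates 1 and 2, and S6k, a kinase downstream of TOR, had 26.1, 26.8 and 13.7 TPM. JAK-STAT genes summed to 58.4, 65.0 and 47.4 TPM; the transcription factor Stat92E had 38.9, 39.8 and 24.5 TPM, its feedback inhibitor Socs36E 6.97, 9.91 and 12.3 TPM and the receptor dome 7.77, 9.84 and 7.81 TPM. Of the 8 listed JAK-STAT genes 4 were detected, 3 stayed under 1 TPM in all 3 libraries and 1 lay on both sides of that level. Among those under 1 TPM were the ligands upd1 and upd2, which stem cell activation is known to involve. The EGFR list summed to 47.9, 57.8 and 49.5 TPM, led by the ligand spi with 10.5, 13.3 and 21.7 TPM, the inhibitor sty with 14.9, 18.3 and 9.97 TPM and the ligand Krn with 10.3, 10.8 and 8.97 TPM. Hypoxia response genes were all 7 detected, at 175, 195 and 124 TPM. Ldh, lactate dehydrogenase, had 58.4, 67.2 and 41.0 TPM, Hph, the prolyl hydroxylase that senses oxygen, 60.7, 66.9 and 37.0 TPM, and scyl 31.5, 34.1 and 26.7 TPM.

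The transcription factors listed for the gut were mostly detected, 42 of 54, and summed to 802, 828 and 588 TPM, less than the single protease Bace in every library. crc, the fly ATF4, which responds to amino acid shortage and stress, led with 148, 156 and 168 TPM. cnc, the fly Nrf2 of the oxidative stress response, had 44.6, 43.4 and 25.6 TPM, and sug, a zinc-finger factor of sugar-dependent gene control, had 54.4, 41.0 and 16.1 TPM. Factors named here after their values were seen include GATAe, which specifies the endoderm, with 25.6, 22.5 and 6.10 TPM, and cad, of the posterior gut, with 28.5, 29.9 and 11.9 TPM. Clock genes, which keep daily time, were detected for 7 of 8, with cry, the blue-light receptor, at 54.8, 59.0 and 42.9 TPM, Pdp1 at 18.5, 18.3 and 18.4 TPM and cyc at 14.8, 15.9 and 10.0 TPM. The 8 Hox genes summed to 3.36, 3.59 and 13.1 TPM, and 3 of them, Dfd, Scr and pb, had no count in any library. Antp had 6.84 TPM in replicate 3, against 0.882 and 0.890 TPM in replicates 1 and 2, and abd-A had 3.52 TPM in replicate 3, against 0.457 and 0.269 TPM in replicates 1 and 2. lab, which copper cells need, stood the other way, with 0.377 TPM in replicate 3, against 1.46 and 1.95 TPM in replicates 1 and 2. Antp and abd-A are known from the embryo as genes of the visceral muscle layer.

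The label of the tissue was checked against marker genes of the midgut and of its neighbours. In bulk RNA, fewer cells of a type and less RNA per cell cannot be told apart, so the levels are those of RNA and not of cells. Enterocyte markers were all detected but 1: 12 of 13 reached 1 TPM in every library, and the exception, Pgant4, had 10.1, 9.57 and 0.881 TPM. Without the 2 trypsins in the list, the markers summed to 1541, 1587 and 1481 TPM. The near-equal sums hid unequal members: of the 10 detected genes 8 were lower and 2, among them mex1, higher in replicate 3 than the mean of batch 1. Their median log2 ratio was −0.97, against −0.36 over all detected genes. mex1, a small protein made in the midgut, had 308, 299.8 and 734 TPM, Ssk was given above, and Myo61F, a brush-border myosin, had 294, 322 and 108 TPM. Npc1b, through which enterocytes take up sterols, was among the 10 genes with the lowest ratio of replicate 3 to batch 1, with 7.14 TPM in replicate 3, against 81.9 and 75.9 TPM in replicates 1 and 2.

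Enteroendocrine genes summed to 646, 670.1 and 819 TPM, with 18 of 25 detected. The sum was higher in replicate 3 through Nplp2, while of the 18 detected genes 14 were lower and 4 higher in replicate 3 than the mean of batch 1. Their median log2 ratio was −0.50, against −0.36 over all detected genes. The peptide genes CCHa2, Nplp2 and AstC led, CCHa2 with 167, 186 and 113 TPM and AstC, allatostatin C, with 114, 111 and 68.7 TPM. Nplp2 differed between libraries, with 352 TPM in replicate 3, against 52.0 and 59.2 TPM in replicates 1 and 2. Orcokinin had 53.8, 53.5 and 53.1 TPM, a coefficient of variation (SD over mean) of 0.636%, among the 10 smallest of any gene at a mean of 50 TPM or more. Tk, tachykinin, singled out after its values were seen, was likewise close in all 3 libraries, at 37.5, 41.7 and 39.1 TPM. pros, the transcription factor used to mark these cells, was under 1 TPM throughout, at 0.705, 0.668 and 0.229 TPM, although the hormones it accompanies were well detected.

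Stem and progenitor cell markers had the lowest sum among the lists for the midgut's own epithelial cells, lists that differ in their number of genes. They came to 43.2, 41.8 and 31.0 TPM, with 7 of 12 detected. E(spl)mbeta-HLH, a target of Notch signalling, had 9.90, 9.29 and 8.53 TPM, esg, the stem cell factor escargot, had 7.56, 6.45 and 5.14 TPM, and E(spl)malpha-BFM, a further Notch target, had 4.94, 4.72 and 4.50 TPM. Delta, the Notch ligand that marks stem cells, lay around the detection threshold, at 0.531, 1.05 and 0.252 TPM, and klu, zfh2, N and spdo were under 1 TPM in all 3 libraries. Cell cycle genes were also low, at 32.2, 66.4 and 15.3 TPM with 5 of 15 detected. CycB, the mitotic cyclin, had 8.38, 17.7 and 3.03 TPM, PCNA, the sliding clamp of replication, had 6.61, 12.4 and 3.09 TPM, and CycA had 4.59, 11.7 and 1.60 TPM. All 3 cell cycle genes were highest in replicate 2, which was also the library with the most RNA of early egg genes such as osk, described below; the part of that RNA in the cell cycle levels was not tested.

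Copper and iron cell markers summed to 6150.3, 6639.7 and 3119.5 TPM, almost all of it ferritin, which other cells make too. Mvl, a metal ion transporter of that region, had 54.2, 58.9 and 16.2 TPM. lab, the most specific of these markers, was at or under 2 TPM in every library, as given above. Visceral muscle markers were the clearest difference between libraries among the cell types, at 10363 TPM in replicate 3, against 901 and 881 TPM in replicates 1 and 2. Of the 18 listed, 16 were detected, and TpnC41C, a troponin C with 5, 2 and 1 counts, was the only listed gene that was not higher in replicate 3 than in both other libraries. Over all detected genes the median log2 ratio of replicate 3 to the mean of batch 1 was −0.36. These contractile genes are also used by body wall and leg muscle, so the list does not name the muscle alone. Act57B, a muscle actin, had 1965 TPM in replicate 3, against 184 and 162 TPM in replicates 1 and 2. Mp20, a calponin-like muscle protein, had 1644 TPM in replicate 3, against 117 and 122 TPM in replicates 1 and 2, and Tm1, a tropomyosin, had 1016 TPM in replicate 3, against 143 and 153 TPM in replicates 1 and 2. Ilp3 and the Hox genes Antp and abd-A stood high in replicate 3 together with these markers, and the part of muscle RNA in their levels was not tested. Indirect flight muscle, a neighbour in the body that is not in the gut, summed to 2.90, 3.12 and 6.26 TPM. Of its 5 listed genes 1 was detected, which made up 73.9% of the mean sum and was higher in replicate 3 (log2 ratio 1.23). The other 4 were under 1 TPM in all 3 libraries, with fln at 0 and Act88F, the defining actin of that muscle, at 0.453, 0.175 and 0.472 TPM.

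**Figure D3:**
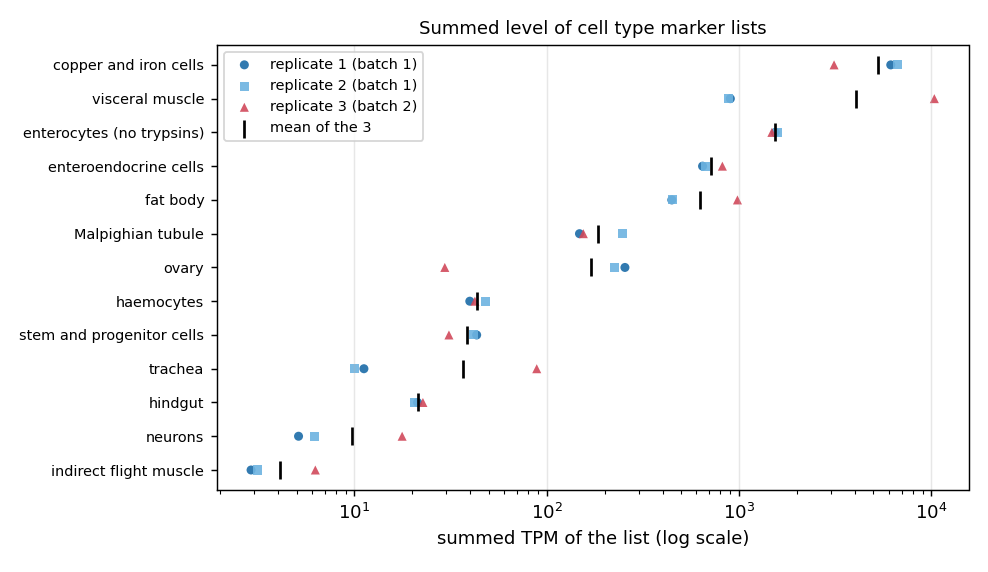
Summed TPM of cell type markers (horizontal log axis) in each library, 1 point per library, for 13 lists, with trypsins left out of the enterocyte list. Visceral muscle markers sat at 10363 TPM in replicate 3, against 901 and 881 TPM in replicates 1 and 2, while enterocyte markers without trypsins sat at 1541, 1587 and 1481 TPM in replicates 1, 2 and 3, a sum in which 8 of 10 detected genes were lower in replicate 3.

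Tracheal markers followed the same order, at 88.7 TPM in replicate 3, against 11.2 and 9.95 TPM in replicates 1 and 2, with 3 of 8 detected. Gasp, a chitin-binding protein of tracheal cuticle, had 61.5 TPM in replicate 3, against 4.38 and 4.79 TPM in replicates 1 and 2. pio had 3.77, 2.47 and 5.48 TPM, and verm, a chitin deacetylase, had 7.73 TPM in replicate 3, against 0.734 and 0.538 TPM in replicates 1 and 2. Neurons were represented by 1 of 10 listed genes, nSyb, a synaptobrevin, with 16.5 TPM in replicate 3, against 3.77 and 4.60 TPM in replicates 1 and 2; elav, the pan-neuronal marker, was under 1 TPM at 0.366, 0.417 and 0.308 TPM, and the list summed to 5.12, 6.18 and 17.7 TPM. Haemocyte markers summed to 39.8, 47.9 and 42.3 TPM, most of it from crq, a scavenger receptor, with 34.0, 40.6 and 34.2 TPM, while the blood cell markers Hml, He and eater were under 1 TPM in all 3 libraries. PPO1, a prophenoloxidase, had 5.05, 6.64 and 1.79 TPM.

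RNA of organs outside the gut tube was present at low to moderate levels. Fat body markers summed to 981 TPM in replicate 3, against 447 and 449.8 TPM in replicates 1 and 2, and their leaders were the yolk protein genes, which ovarian follicle cells also express: Yp1 had 157, 174 and 377 TPM, Yp2 155, 192 and 245 TPM and Yp3 95.4, 56.4 and 235 TPM. Ovary markers summed to 255, 226 and 29.5 TPM, and their make-up differed from library to library. Vm26Aa, a vitelline membrane protein of the egg shell, had 215, 28.1 and 2.66 TPM, and so was mostly in replicate 1. Cp38, a chorion protein, had 0.555, 47.2 and 1.51 TPM, and dhd, a thioredoxin of the egg, had 17.5, 63.2 and 11.5 TPM, both highest in replicate 2. osk, the germ plasm organiser, also singled out after its values were seen, had 3.76, 18.7 and 0.727 TPM. Malpighian tubule markers summed to 148, 249 and 155 TPM; Uro, urate oxidase, which is made in the tubule, had 74.3, 154 and 89.6 TPM, Irk1 had 17.8, 21.4 and 13.2 TPM and Irk2 17.0, 17.7 and 11.2 TPM. Hindgut markers summed to 21.3, 20.5 and 22.7 TPM, of which drm had 13.4, 13.6 and 18.1 TPM and bowl 6.73, 6.63 and 4.23 TPM, while byn, the defining hindgut factor, was under 1 TPM at 0.565, 0.168 and 0.134 TPM. Midgut markers were thus detected in all 3 libraries, and ovary and tubule markers were detected beside them at levels that were not equal between libraries.

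Families with a role elsewhere in the fly were nearly silent. Of 70 cuticle protein genes 3 were detected and 42 had no count, at a sum of 49.1, 43.3 and 55.8 TPM. Cpr67B had 576, 559 and 36 counts, out of 20640919, 21217514 and 6997693 counts in the libraries, so these raw counts are not on 1 scale. Cpr78E had 2.41, 2.92 and 41.3 TPM and Cpr51A 6.65, 7.05 and 3.19 TPM. Of 51 odorant binding proteins 4 were detected and 31 had no count. Obp56d was present mostly in replicate 1, with 58.0, 6.68 and 0.469 TPM, as was Obp56a with 33.5, 1.79 and 0.269 TPM, whereas Obp99c had 46.2 TPM in replicate 3, against 3.31 and 2.90 TPM in replicates 1 and 2. No gustatory receptor of 60 and no odorant receptor of 61 was detected; 40 and 51 of them had no count, and the sums were 2.31, 2.94 and 1.15 TPM and 1.66, 1.87 and 0.751 TPM. Gr98a, the highest of the gustatory receptors, had 0.686, 0.744 and 0.238 TPM, and Or2a, the highest of the odorant receptors, had 1.00, 0.934 and 0.391 TPM. At these depths a count of 0 allows a level of up to the floor given above.

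**Figure D4:**
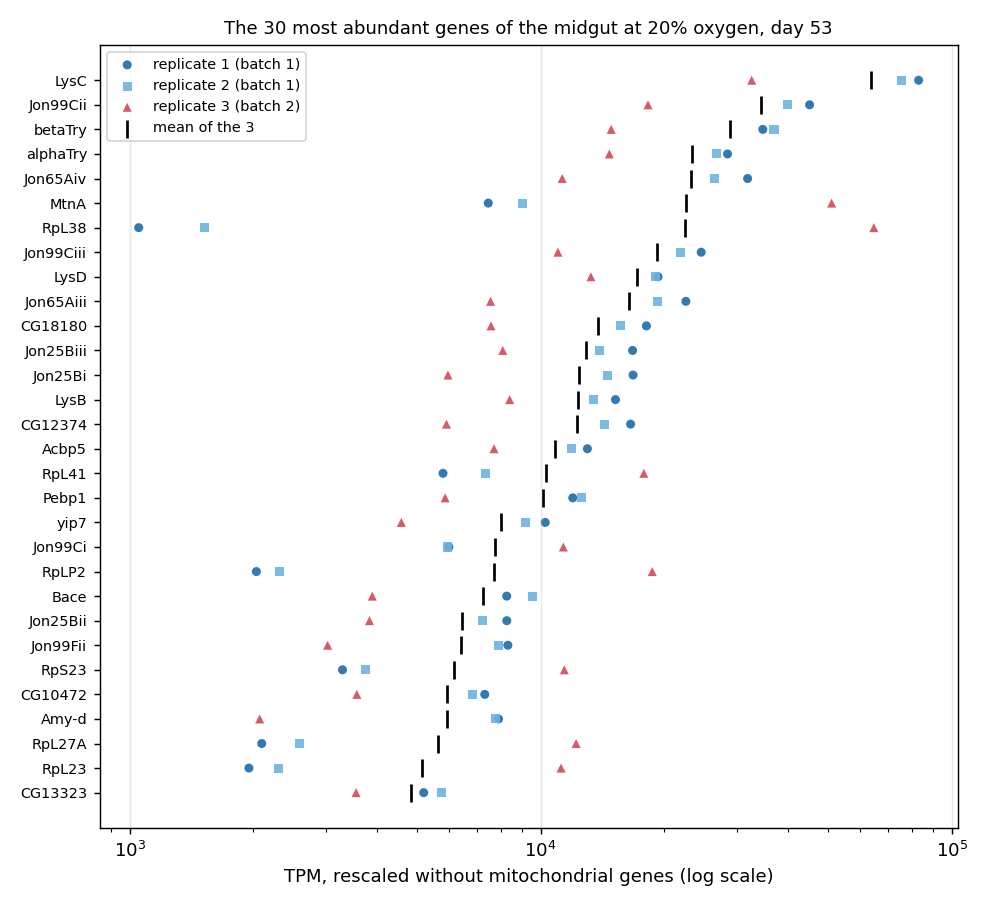
TPM (horizontal log axis) of the 30 genes with the highest mean, 1 point per library, ordered by mean from the top. LysC led at 83149.6, 75524 and 32631 TPM in replicates 1, 2 and 3, while RpL38 spanned 1052 to 64704 TPM.

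Across genes, replicate 3 differed from replicates 1 and 2 more than these differed from each other. Among the 3 libraries described here it is the only one of batch 2, so within them its batch and the state of this library cannot be told apart. Among the 1306 genes with a mean of 50 TPM or more, 1284 (98.3%) lay within 2-fold between replicates 2 and 1. Between replicate 3 and the mean of replicates 1 and 2, 834 (63.9%) lay within 2-fold, 211 were 2-fold or more higher in replicate 3 and 261 were lower by as much. The median coefficient of variation of these genes was 28.7%. The 10 highest ratios belonged to RpL38, BomS6, 4 long non-coding RNAs and 4 genes known by a CG number. That of BomS6 rests on the few counts given above. Those of lncRNA:CR43264 and lncRNA:CR43995 rest on few counts in batch 1, given below. Of the 4 genes with a CG number CG42714 was the most abundant, with 1133 TPM in replicate 3, against 42.8 and 54.4 TPM in replicates 1 and 2. CG34446 had 301 TPM in replicate 3, against 8.72 and 14.5 TPM in replicates 1 and 2, and CG30108 had 262 TPM in replicate 3, against 9.42 and 12.4 TPM in replicates 1 and 2. CG40486, the longest of the 4 at 951 bases, had 194 TPM in replicate 3, against 9.21 and 8.62 TPM in replicates 1 and 2.

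The 10 lowest ratios held 2 egg shell genes, Vm26Aa and Vm34Ca, and Vm34Ca had 2.96 TPM in replicate 3, against 243 and 31.1 TPM in replicates 1 and 2. CG42704 had 3.48 TPM in replicate 3, against 203 and 52.1 TPM in replicates 1 and 2 and CG42705 had 6.86 TPM in replicate 3, against 135 and 22.4 TPM in replicates 1 and 2; like the egg shell genes, both were also lower in replicate 2 than in replicate 1. CG14125 had 45.4 TPM in replicate 3, against 825 and 746 TPM in replicates 1 and 2. CG43673 had 5.81 TPM in replicate 3, against 106 and 62.8 TPM in replicates 1 and 2, and CG34220 had 45.1 TPM in replicate 3, against 561 and 574 TPM in replicates 1 and 2. Muc68D, DptA and Npc1b, described above, completed the 10. The part of ovarian RNA in the levels of the unnamed genes was not tested.

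The genes with the smallest spread covered mostly ordinary cell functions, apart from the enteroendocrine gene Orcokinin. Arpc3B, a subunit of the complex that branches actin filaments, had 112, 112 and 113 TPM. EMC10, of the membrane insertion complex, had 57.2, 58.0 and 58.0 TPM, and Dpm1, which makes the mannose donor for glycosylation, had 57.2, 56.2 and 57.2 TPM. COX5A, a subunit of cytochrome oxidase, had 628, 654 and 642 TPM, Fis1, of mitochondrial fission, 93.0, 94.5 and 91.6 TPM and Scsalpha1, of succinyl-CoA synthetase, 75.7, 76.3 and 74.4 TPM. CtsF, a cathepsin, had 80.8, 78.2 and 80.7 TPM, and GstE12, Desat1 and Orcokinin, given above, were the others.

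A few genes were unequal within batch 1. They were picked after their values were seen, as the 5 most unequal genes in each direction. whe had 157, 1095 and 4046 TPM, CG43679 3.67, 25.7 and 248 TPM and CG45080 161, 618 and 923 TPM, all lowest in replicate 1 and highest in replicate 3. CG16826 and CG34212 followed the same order, with 81.3, 282 and 444 TPM and 102, 312 and 517 TPM. Drs, CG43074, CG43090, CG18628 and Vm34Ca were higher in replicate 1. CG43074 had 155, 12.6 and 18.9 TPM, CG43090 197, 16.9 and 18.2 TPM and CG18628 39.8, 4.10 and 131 TPM.

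Transcript length moved with the gap between replicate 3 and batch 1. Over genes at 5 TPM or more in all 3 libraries, the median log2 ratio of replicate 3 to batch 1 was 0.78 for 200 genes under 500 bases and 0.14 for 1029 genes of 500 to under 1000 bases. It was −0.26 for 1732 genes of 1000 to under 2000 bases, −0.71 for 1049 genes of 2000 to under 4000 bases and −0.97 for 203 genes of 4000 bases or more. The median log2 ratio of replicate 2 to replicate 1 stayed between 0.12 and 0.13 in every bin. The short ribosomal proteins, metallothioneins, complex I subunits and Bomanins that were high in replicate 3, and the long Npc1b and Muc68D that were low, had ratios of the same sign as the median of the shortest or the longest genes, but single genes lay well beyond those medians. RpL38 had a log2 ratio of 5.65, MtnA 2.63, Npc1b −3.47 and Muc68D −3.75. The part of length in their levels was not tested. Some other genes had ratios of the opposite sign to the median of their length bin. Mhc (6698 bases), the muscle myosin heavy chain, singled out after its values were seen, had 151 TPM in replicate 3, against 21.2 and 20.3 TPM in replicates 1 and 2. It belongs to the visceral muscle list, which was high in replicate 3 as a set. The short DptA and Vm26Aa were low in replicate 3. The part of length in these levels was not tested either.

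**Figure D5:**
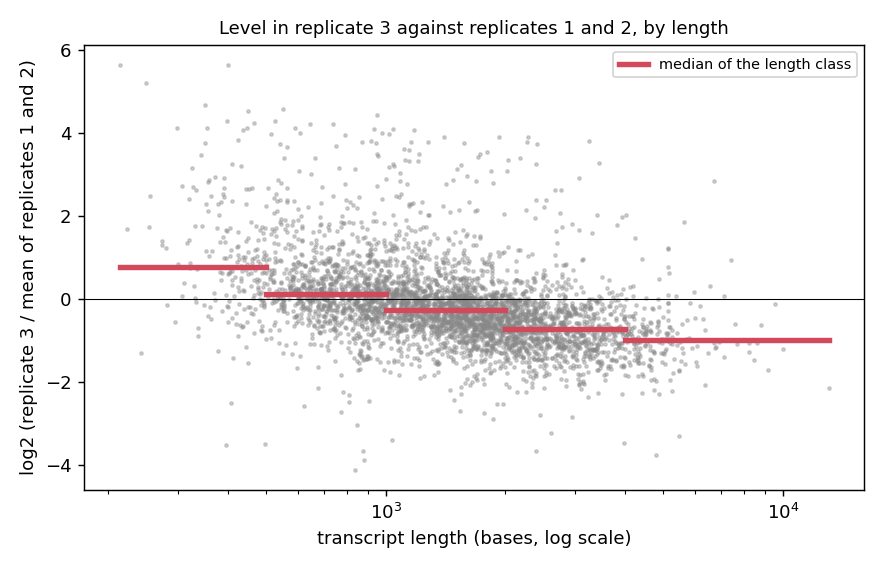
Log2 ratio of replicate 3 to the mean of replicates 1 and 2 (vertical axis) against transcript length in bases (horizontal log axis), 1 point per gene, with the median of each length bin. The medians fall with each longer bin, 0.78 under 500 bases and −0.97 at 4000 bases or more.

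Non-coding RNA held 0.157%, 0.166% and 0.878% of TPM, with 92 of 3289 features detected. lncRNA:CR32368 (chromosome 3L, 7915437 to 7915846, plus strand) had 2007 TPM in replicate 3, against 396 and 383 TPM in replicates 1 and 2 and lncRNA:CR40469 (chromosome X, 122493 to 122706, plus strand) had 2929 TPM in replicate 3, against 48.6 and 68.8 TPM in replicates 1 and 2. lncRNA:CR34335 (chromosome X, 3545750 to 3546110, minus strand) had 1927 TPM in replicate 3, against 43.4 and 61.0 TPM in replicates 1 and 2. These 3 short RNAs were all higher in replicate 3, whereas lncRNA:CR42862, of 5468 bases, had 8.53 TPM in replicate 3, against 78.6 and 88.2 TPM in replicates 1 and 2. lncRNA:Hsromega, the heat shock RNA omega, was even, at 63.6, 62.4 and 79.5 TPM. The others of the leading 10 were lncRNA:CR43264 with 2.77, 6.33 and 183 TPM, hpRNA:CR18854 with 24.8, 26.9 and 136 TPM, lncRNA:CR43995 with 3.70, 8.77 and 156 TPM, lncRNA:CR45570 with 47.1, 54.3 and 23.6 TPM and lncRNA:CR44127 with 6.59, 5.26 and 104 TPM. Few counts lay behind lncRNA:CR43264 (8, 18 and 218), lncRNA:CR43995 (6, 14 and 100) and lncRNA:CR44127 (18, 13 and 111). lncRNA:CR40469 had 48, 67 and 1196 counts over an effective length of 32.4 bases.

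Transposon copies, mobile elements annotated by insertion, held 0.0550%, 0.0587% and 0.0634% of TPM, with 43 of 5889 features detected. Of the 5 leading copies 4 were copia, a retrotransposon of the long terminal repeat kind. The highest, copia{}1467 (chromosome 3R, 31413145 to 31418286, minus strand), had 41.5, 46.5 and 102 TPM, and Burdock{}320 (chromosome 2L, 7548136 to 7550514, minus strand) had 36.8, 33.5 and 16.8 TPM. Copies of copia are near-identical, so which of them was transcribed is uncertain.

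The choice of transcript per gene was stable inside batch 1. Of 2893 genes at 10 TPM or more in every library, 1808 had more than 1 transcript in the annotation. The leading transcript was the same in replicates 1 and 2 for 1727 of them (95.5%) and in all 3 libraries for 1519 (84.0%). It held a median of 88.8%, 88.3% and 89.5% of its gene's TPM in replicates 1, 2 and 3. These shares are estimates of a quantification program and carry no interval here.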

How the data were processed

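The authors deposited 1 quantification table per library with, per the file headers, TPM and expected counts (estimated numbers of reads, which need not be whole) for 41539 transcripts, and a transcript-to-gene table. Per the submitters' processing notes the tools included STAR 2.7.11b and Salmon 1.10.3 (settings and genome build not given in the sources used here). Each of the 41539 transcript lengths equals that in the Ensembl 115 annotation of BDGP6.54, which supplied coordinates and biotypes.

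TPM was summed per gene, genes whose names start with mt: were removed, and each library was rescaled to 1000000. CPM came from the deposited expected counts, likewise without mt: genes. Library totals were 21.5, 22.2 and 19.4 M counts (M, 1000000) in replicates 1, 2 and 3. Counting error alone is covered by the intervals and floors. Where a value is not whole, counts were rounded for intervals and for printing.

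With 1 group of 3 libraries, no test was run: values are given per library with mean and SD. Members and gene lists were chosen with earlier results of these data known. The lists of gustatory receptors, odorant receptors, Hox genes and clock genes were added after the data were seen. Of the listed symbols, 23 were matched through synonyms and 3 could not be matched. Genes named in the text are the 30 with the highest mean, the 3 leading members of each list, members under 1 TPM in all libraries, the 10 highest, the 10 lowest and the 10 steadiest genes across libraries at a mean of 50 TPM or more, and the leading 10 non-coding and 5 transposon features; others are said to be chosen later. Members of the 3 clusters of digestive genes described and further genes of the top 100 were named beside them after their values were seen. Alternatives were CPM, mt: genes kept, other thresholds, the median, each library left out, and transcripts with an effective length under 100 bases left out. A first version of the P450 list also held the cyclophilins Cyp1 and Cyp40, which were removed. The summing and ranking steps were tested on simulated data. Python 3.11.15 with pandas 2.3.3, numpy 2.4.6, scipy 1.17.1 and matplotlib 3.10.9 was used.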

Additional observations from a re-analysis of the deposited data

How the results depend on the processing

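No paired analysis was possible because 1 group was described and no test was made. With mt: genes kept, the leading 10 genes held 33.5% of TPM and the leading 100 held 68.9%, against 27.1% and 62.4% without them. In CPM the leading 10 held 18.7%, the leading 100 held 45.6% and the proton pump summed to 9950.4 CPM, against 4449 TPM. Detection at 5 TPM left 4213 genes, against 7135 at 1 TPM. Without replicate 3 the leading 10 held 31.0%. Over the 3 ways of leaving out 1 library, the share of the leading 10 ranged from 25.8 to 31.0%, that of the leading 100 from 61.4 to 64.2%, detected genes from 7222 to 7623, genes shared by every library's top 100 from 67 to 93, digestive serine proteases from 181799 to 254197 TPM, ribosomal proteins from 124218 to 227293 TPM, the proton pump from 4136 to 4991 TPM and visceral muscle markers from 891 to 5632 TPM. The muscle sum therefore rests on replicate 3. Of 60 lists, 47 moved by more than 1 SD between TPM and CPM, and 8 did so when short effective lengths were left out. Of the 30 leading genes, 24 were kept in CPM, 23 with mt: genes, 25 by the median and 25 without replicate 3. Depth limits replicate 3 most, since 3 counts stood there for 0.429 CPM.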
